A study of Mus musculus with 6 samples.

Results

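Interferon-stimulated genes were followed on 6 arrays of LSK cells, 3 from WT mice and 3 from Tet1 KO mice. The set holds 9 genes: Usp18, Isg15, Ifit1, Ifit2, Ifit3, Ifi27, Ifi27l2a, Cmpk2 and Oasl2. Every probe set whose platform annotation gives exactly 1 gene symbol equal to one of these names was taken, which gave 10 probe sets for 8 genes, of 45101 probe sets in the table. The genes were chosen from results on these same 6 arrays, in which Tet1 KO had been set against WT. The difference between the genotypes is therefore given for them as a description, with no test. Isg15 has no value here, because the 1 probe set annotated with it is also annotated with Gm9706.

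LSK cells are bone marrow cells without mature lineage markers that carry Sca-1 and Kit, and they include the haematopoietic stem cells. They were sorted from the marrow of mice aged 6 months, of a strain written CD57BL/6 in the labels. The Tet1 KO mice lack Tet1, which oxidises 5-methylcytosine in DNA, and the labels do not state which part of the gene was removed, whether the loss was restricted to certain cells, or whether each array came from its own mouse. The p-values therefore measure the spread between these samples, which may be technical. The labels name no treatment, so the values describe the resting level of these genes and not a response to added interferon.

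Type I interferons bind a receptor of the chains IFNAR1 and IFNAR2, which activates the kinases JAK1 and TYK2. The signal passes to a complex with STAT2 and IRF9, which binds the interferon-stimulated response element, a DNA motif upstream of antiviral genes. Stem cells of the marrow respond to interferon, and exposure to it can drive them out of quiescence.

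Values are log2 intensities as deposited, so a difference of 1 is a doubling of signal, and errors are SDs of 3 arrays. Levels of different probe sets cannot be compared, because each has its own sensitivity. The medians of the 6 arrays spanned 0.0694. The bacterial control level, the mean over arrays of the brightest bacterial control probe set, was 4.39, and all 10 probe sets read above it on every array. On Tet1 KO replicate 2 that control stood apart, at 4.87, whereas no other array exceeded 4.37. Replicate 3 of each genotype had low Xist, at 4.58 and 3.82, against at least 11.78 on the other arrays. The same arrays had high Kdm5d, a Y-linked gene, at 8.30 and 9.16, against at most 3.65 on the others. Sex is not in the labels used. The brightest Tet1 probe set read 6.89, 6.80 and 6.75 in WT and 6.26, 5.63 and 5.51 in Tet1 KO. In limma fitted over 45037 probe sets, 0 (0%) passed a Benjamini-Hochberg adjusted p of 0.05, while 3065 had an unadjusted p under 0.05. With an intensity trend in the fit, 1 probe set passed, 1450192_at, which has no single gene symbol.

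Of the 10 probe sets, 5 read higher on average in Tet1 KO and 5 lower. The higher ones belonged to Usp18, Ifit1, Oasl2, Ifit2 and Ifit3, and the lower ones to Ifi27l2a, Ifi27 and Cmpk2. Both probe sets of Ifi27 and both of Cmpk2 gave the same direction. The groups did not overlap for Usp18 on the higher side and for Ifi27l2a and 1 Ifi27 probe set on the lower side. Over all probe sets, 9.96% lay higher in Tet1 KO without overlap and 6.29% lower without overlap. Since the genes were picked with this contrast known, nothing is read from the members' counts. The median difference over the 10 probe sets was -0.15, against 0.06 over all probe sets and -0.04 over those above the bacterial control level. It was -0.32, -0.07 and 0.00 when Tet1 KO replicates 1, 2 and 3 were dropped in turn, and -0.09 when WT replicate 3 was dropped. It was 0.16 with 1 value per gene, because the 2 genes with a pair of probe sets were both on the lower side.

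**Figure D1:**
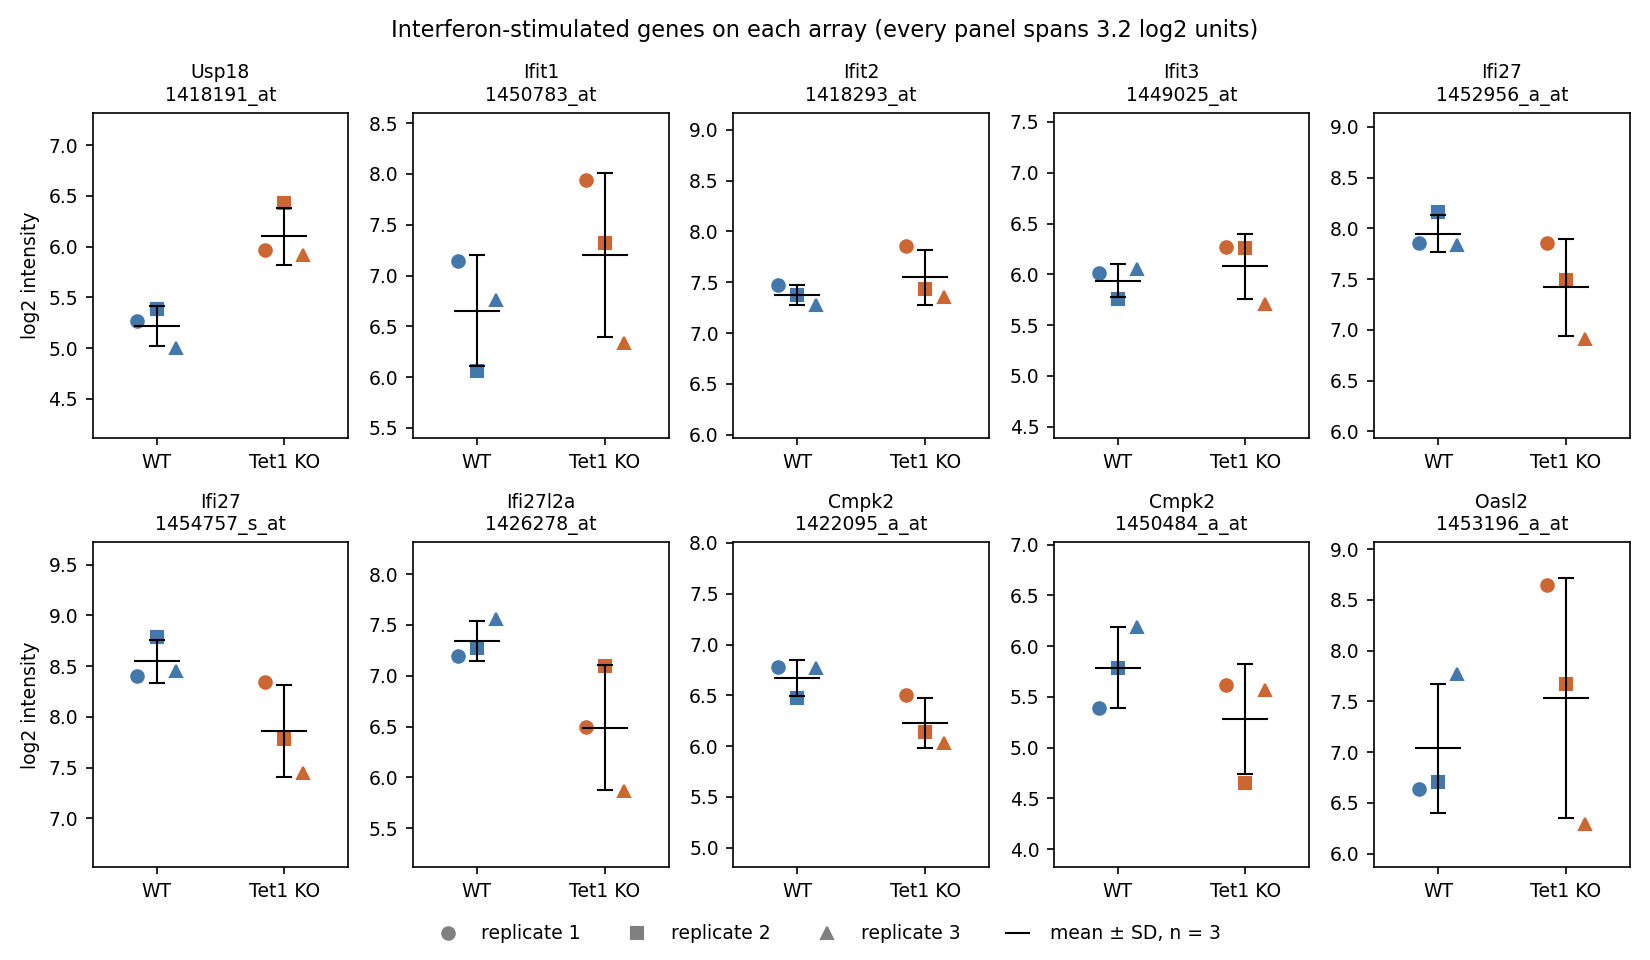
Log2 intensity of the 10 probe sets (1 panel each) on the 3 WT and 3 Tet1 KO arrays, with marker shape for the replicate number and bars for mean ± SD. Usp18 lies wholly above WT and Ifi27l2a wholly below it in Tet1 KO, while the Oasl2 arrays of Tet1 KO run from 6.29 to 8.64 and enclose those of WT.

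Usp18 is the protease that removes the ubiquitin-like protein ISG15 from its targets, and it also dampens signalling at the IFNAR2 chain. Its probe set read 5.27, 5.39 and 5.01 in WT and 5.96, 6.43 and 5.91 in Tet1 KO. Every Tet1 KO array was above every WT array, with the highest value on Tet1 KO replicate 2. The means were 5.22 ± 0.20 and 6.10 ± 0.28, a difference of 0.88, or 1.84-fold. Leaving out any 1 array kept the difference between 0.72 and 0.97. Usp18 was the 1 member that lay above the WT mean on all 3 Tet1 KO arrays.

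The IFIT proteins are antiviral effectors that bind foreign RNA, with IFIT2 and IFIT3 acting as partners of IFIT1. Their genes lie near each other, with the family members in the order Ifit2, Ifit3, Ifit1bl1, Ifit3b, Ifit1bl2 and Ifit1. The interferon-stimulated response element was searched as GAAANNGAAA on both strands in the 250 bases upstream of the RefSeq transcription start (build GRCm38.p6). Promoters were listed for 6 of the 9 members, and 3 of these held the motif, against 936 of 27025 genes (3.46%) with a promoter in the table. The windows of Ifit1, Ifit3 and Isg15 are shown because they carry the motif, each from -160 to -51 relative to the start, written along the gene's own strand, with every motif match in capitals.
Ifit1, chr19:34640729-34640838, plus strand: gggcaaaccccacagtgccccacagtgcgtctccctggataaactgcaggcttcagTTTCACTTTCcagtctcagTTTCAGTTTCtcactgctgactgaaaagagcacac
Ifit3, chr19:34583369-34583478, plus strand: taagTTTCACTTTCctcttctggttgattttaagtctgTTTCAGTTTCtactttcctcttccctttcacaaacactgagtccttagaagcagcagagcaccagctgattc
Isg15, chr4:156200869-156200978, minus strand: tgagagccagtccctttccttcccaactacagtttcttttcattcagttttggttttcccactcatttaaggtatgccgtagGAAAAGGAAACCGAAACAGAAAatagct

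Ifit1 and Ifit3 each held 2 separate matches, all on the strand opposite to the gene. Isg15 held 3 matches on the gene's own strand that overlapped in 1 run. The windows of Ifit2, which has 2 listed starts, and of Oasl2 and Cmpk2 did not hold these letters. The gamma-activated site, searched as TTCNNNGAA, which reads the same on both strands, was found at 1 Ifit2 start and at 8.13% of all genes. Of 43 other type I interferon-stimulated genes with a listed promoter, 13 (30.2%) held the response element. A match describes the letters only, and binding was not measured.

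**Figure D2:**
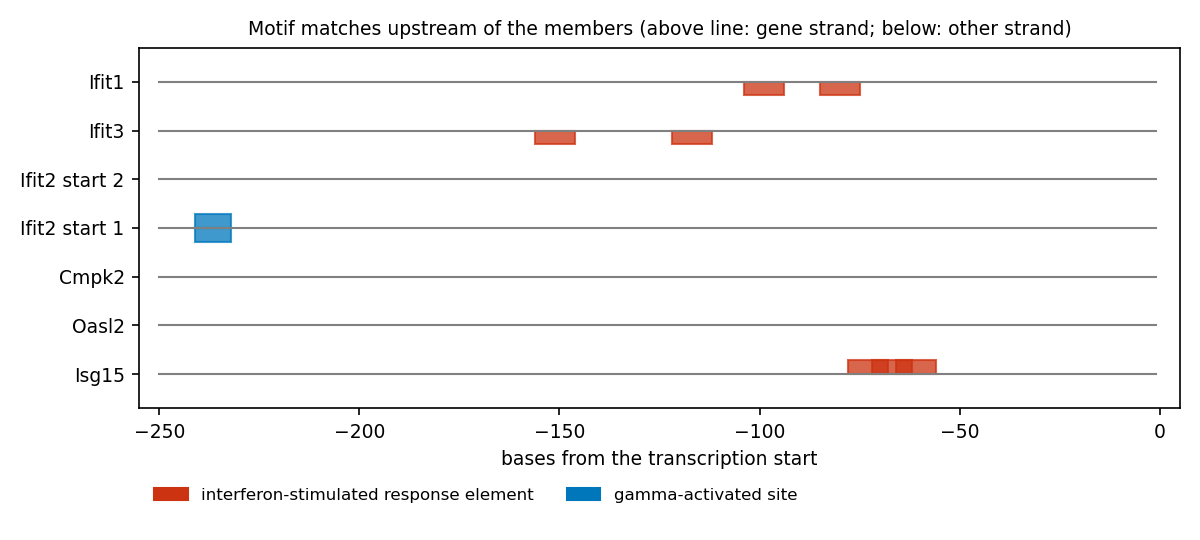
Position of motif matches in the 250 bases upstream of the listed starts of 6 members, in bases from the transcription start, with boxes above or below the line for the strand. The response element lies at -104 and -85 in Ifit1, at -156 and -122 in Ifit3 and from -78 in Isg15.

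Ifit1 read 7.14, 6.06 and 6.76 in WT and 7.94, 7.32 and 6.34 in Tet1 KO. Tet1 KO replicates 1 and 2 were above all WT arrays, whereas replicate 3 lay inside the WT range. The means were 6.66 ± 0.55 and 7.20 ± 0.81, so that the difference of 0.55 was of the size of the SD within a group. Dropping Tet1 KO replicate 1 left 0.18, and dropping Tet1 KO replicate 3 gave 0.98. Dropping WT replicate 2, the lowest WT array, left 0.25.

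Ifit2 read 7.47, 7.37 and 7.27 in WT and 7.86, 7.43 and 7.35 in Tet1 KO. Only Tet1 KO replicate 1 stood above the WT arrays. The means of 7.37 ± 0.10 and 7.55 ± 0.27 differed by 0.18. Without that array the difference was 0.02, and it was 0.27 when Tet1 KO replicate 3 was left out.

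Ifit3 read 6.01, 5.76 and 6.05 in WT and 6.27, 6.26 and 5.71 in Tet1 KO. Replicates 1 and 2 of Tet1 KO were above WT and replicate 3 was below it. The means of 5.94 ± 0.16 and 6.08 ± 0.32 differed by 0.14. Dropping Tet1 KO replicate 1, Tet1 KO replicate 2 or WT replicate 2 left 0.05, and dropping Tet1 KO replicate 3 gave 0.32. All 3 IFIT genes thus had their highest value on Tet1 KO replicate 1 and their lowest Tet1 KO value on replicate 3.

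Oasl2 belongs to the oligoadenylate synthetase family, whose members sense double-stranded RNA, and carries ubiquitin-like domains. It had the widest range of the 10 probe sets, 2.35. It read 6.64, 6.70 and 7.77 in WT and 8.64, 7.67 and 6.29 in Tet1 KO. The Tet1 KO arrays enclosed those of WT, with replicate 1 at the top and replicate 3 at the bottom. The means were 7.04 ± 0.64 and 7.54 ± 1.18, and the difference of 0.50 became -0.05 once Tet1 KO replicate 1 was dropped. Dropping Tet1 KO replicate 3 in its place gave 1.12. Dropping WT replicates 1, 2 and 3 in turn gave 0.30, 0.33 and 0.87. Oasl2 was the 1 member whose direction turned under any of the alternatives.

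Cmpk2 encodes a mitochondrial nucleotide kinase that is induced by interferon, and its gene lies next to Rsad2, which encodes the antiviral enzyme viperin. Probe set 1422095_a_at read 6.78, 6.47 and 6.77 in WT and 6.51, 6.14 and 6.04 in Tet1 KO. The groups touched, since Tet1 KO replicate 1 lay just above WT replicate 2. The means of 6.67 ± 0.17 and 6.23 ± 0.25 differed by -0.45.

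The other Cmpk2 probe set, 1450484_a_at, read 5.39, 5.79 and 6.19 in WT and 5.62, 4.65 and 5.57 in Tet1 KO. Its difference of -0.51 rested largely on Tet1 KO replicate 2, without which it was -0.19, and on WT replicate 3, without which it was -0.31. On Tet1 KO replicate 2 the value of 4.65 was under the array's own brightest bacterial control, 4.87. The neighbouring gene Rsad2 read 9.21, 7.07 and 6.81 in WT and 7.56, 7.48 and 5.87 in Tet1 KO. The direction at this probe set depended on the high WT replicate 1, as its difference of -0.73 (SE 0.74, limma unadjusted p 0.362) became 0.03 without that array. It was -0.18 when Tet1 KO replicate 3 was left out. The other Rsad2 probe sets gave -0.49 and -0.12.

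Ifi27 and Ifi27l2a encode small hydrophobic proteins of the ISG12 family, known from mitochondria and the nuclear envelope, and their genes are neighbours. RefSeq lists Ifi27 as an older name of Ifi27l2a as well, so annotation of different ages can mix the names. Ifi27 probe set 1454757_s_at read 8.41, 8.79 and 8.45 in WT and 8.35, 7.78 and 7.45 in Tet1 KO. All Tet1 KO arrays were below WT, but replicate 1 by a small margin. The means of 8.55 ± 0.21 and 7.86 ± 0.45 differed by -0.69. The other Ifi27 probe set, 1452956_a_at, read 7.85, 8.16 and 7.84 in WT and 7.86, 7.49 and 6.91 in Tet1 KO. Here replicate 1 of Tet1 KO lay inside the WT range, and the difference was -0.53, or -0.28 when Tet1 KO replicate 3 was left out. Both probe sets placed the Tet1 KO arrays in the same order, and both are annotated with 1 gene, so they are not separate evidence. The name of 1454757_s_at ends in s_at, which can mark probes shared by several transcripts. Whether it reads Ifi27 alone was not tested.

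Ifi27l2a read 7.19, 7.28 and 7.56 in WT and 6.50, 7.10 and 5.87 in Tet1 KO. All Tet1 KO arrays were below WT, and replicate 2 came nearest to it. The means were 7.34 ± 0.19 and 6.49 ± 0.62, a difference of -0.86, or 1.81-fold lower. Leaving out single arrays gave differences from -1.16 (Tet1 KO replicate 2) to -0.55 (Tet1 KO replicate 3). The third gene of this neighbourhood, Ifi27l2b, had means of 6.52 ± 0.14 in WT and 6.62 ± 0.26 in Tet1 KO, which differed by 0.10 with a limma unadjusted p of 0.618. Its probe set has a name ending in x_at, which marks sequence shared with other transcripts.

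**Figure D3:**
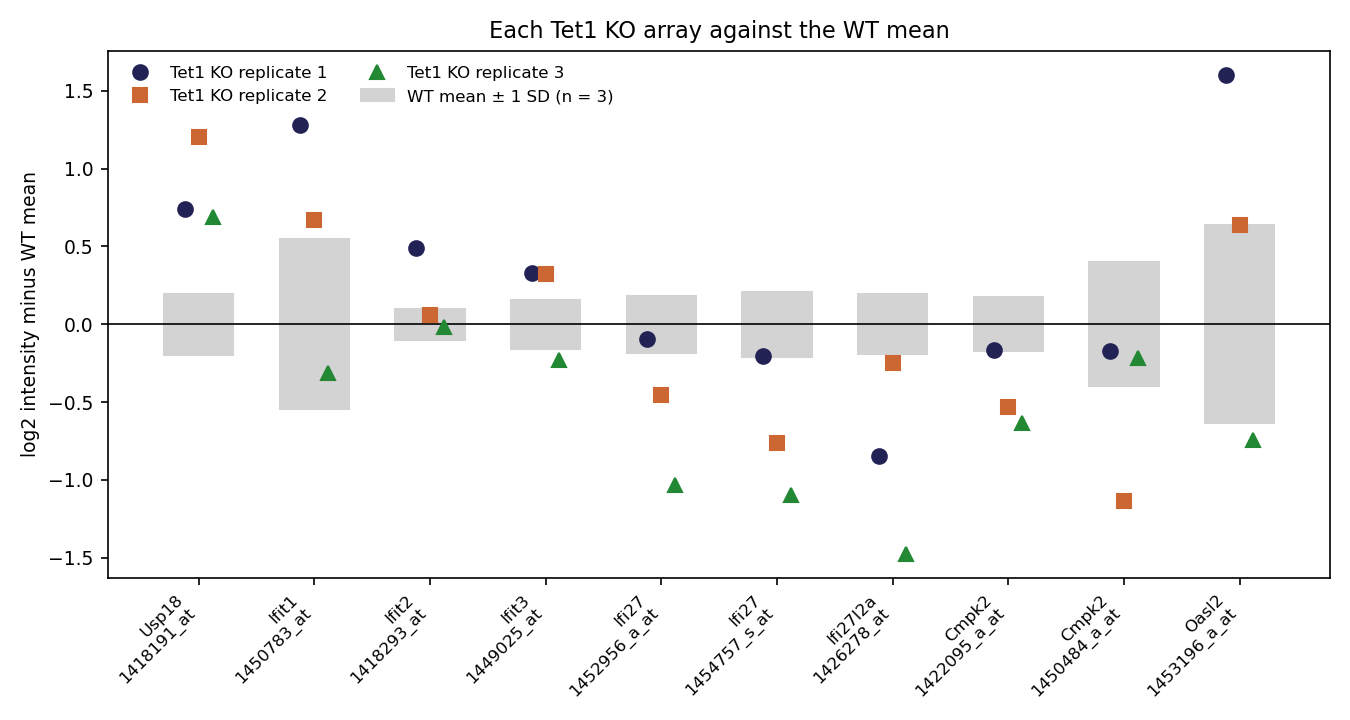
Each Tet1 KO array relative to the WT mean (log2, y axis) for the 10 probe sets (x axis), with grey boxes for ± 1 SD of the WT arrays. Replicate 3 (triangles) lies below replicate 1 (circles) at all 10, by less than 0.05 in Usp18 and 1 Cmpk2 probe set and by 2.35 in Oasl2.

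The members varied more among Tet1 KO arrays than among WT arrays. The SD within Tet1 KO exceeded that within WT for 10 of 10 probe sets, with medians of 0.46 and 0.20. Over all probe sets this held for 71.9%, with medians of 0.30 and 0.17, so most of the table also varied more within Tet1 KO. Tet1 KO replicate 3 read below Tet1 KO replicate 1 at 10 of 10 member probe sets and at 47.3% of all probe sets. It was the lowest of the 3 at 9 of 10, against 32.3% of all. Tet1 KO replicate 1 was the highest at 8 of 10, against 25.1%; the exceptions were Usp18 and Ifi27l2a. In WT, replicate 3 read below replicate 1 at 5 of 10, against 46.6% of all probe sets.

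The spread among Tet1 KO arrays was seen in the same values that were known when the genes were chosen, and it carries no test. Among 135 other genes of the interferon pathway, replicate 3 of Tet1 KO was below replicate 1 for 72 (53.3%). By list this ran from 1 of 6 receptor genes to 6 of 7 interferon regulatory factors, apart from the list of 1 gene. Replicate 3 is also the array with low Xist and high Kdm5d in its group. WT replicate 3, which had low Xist too, was the highest WT array for Oasl2, Ifit3, Ifi27l2a and 1 Cmpk2 probe set. The part of the Xist state in these values was not tested for single arrays, and with it as a term the differences between the genotypes were the same, since each group has 1 such array.

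The 8 genes most like the members were those with the highest Pearson correlation over the 6 arrays with the members' mean profile. The profile was centred on each gene's own mean and read 0.00, -0.14 and 0.09 in WT and 0.39, 0.15 and -0.49 in Tet1 KO. The 8 genes were Hsd3b7, Adi1, Sptlc2, Haus7, 5430427O19Rik, Abcc10, 5830454E08Rik and L3mbtl3, with r from 0.94 to 0.97. None of the 8 is in the interferon lists. Of 4924 genes above the bacterial control level with a range of at least 1, 114 (2.32%) had r over 0.8, and so had 1 of 52 interferon pathway genes (1.92%), which was Ifi209 at 0.88, named after its value was seen. All these points share the same 6 arrays, and a correlation over so few is only a description.

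The rest of the pathway was read from lists by role, each gene by its brightest probe set, in the fit over all probe sets. The lists were drawn up with earlier results of these data known, so their counts are a description only. Of 135 genes, 56 read higher and 79 lower in Tet1 KO, with a median difference of -0.08. Over all genes 56.5% read higher, with a median of 0.05, which is the background for the counts of each list. Part of that background is dim signal, as the median over probe sets above the bacterial control level was -0.04. None passed adjustment in limma, with a lowest adjusted p of 0.686. At an unadjusted p under 0.05 there were 2 higher (1.48%) and 5 lower (3.7%), where the same rule held 3.02% higher and 3.7% lower of all genes, so the shares were at or below the background. These counts moved with single arrays: dropping Tet1 KO replicate 1 raised the lower count to 11, and dropping WT replicate 1 or WT replicate 3 reduced it to 2. The higher count became 4 when Tet1 KO replicate 2 was dropped, 5 when it was Tet1 KO replicate 3 and 1 when it was WT replicate 3. Cyclic loess left 0 higher and 2 lower.

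**Figure D4:**
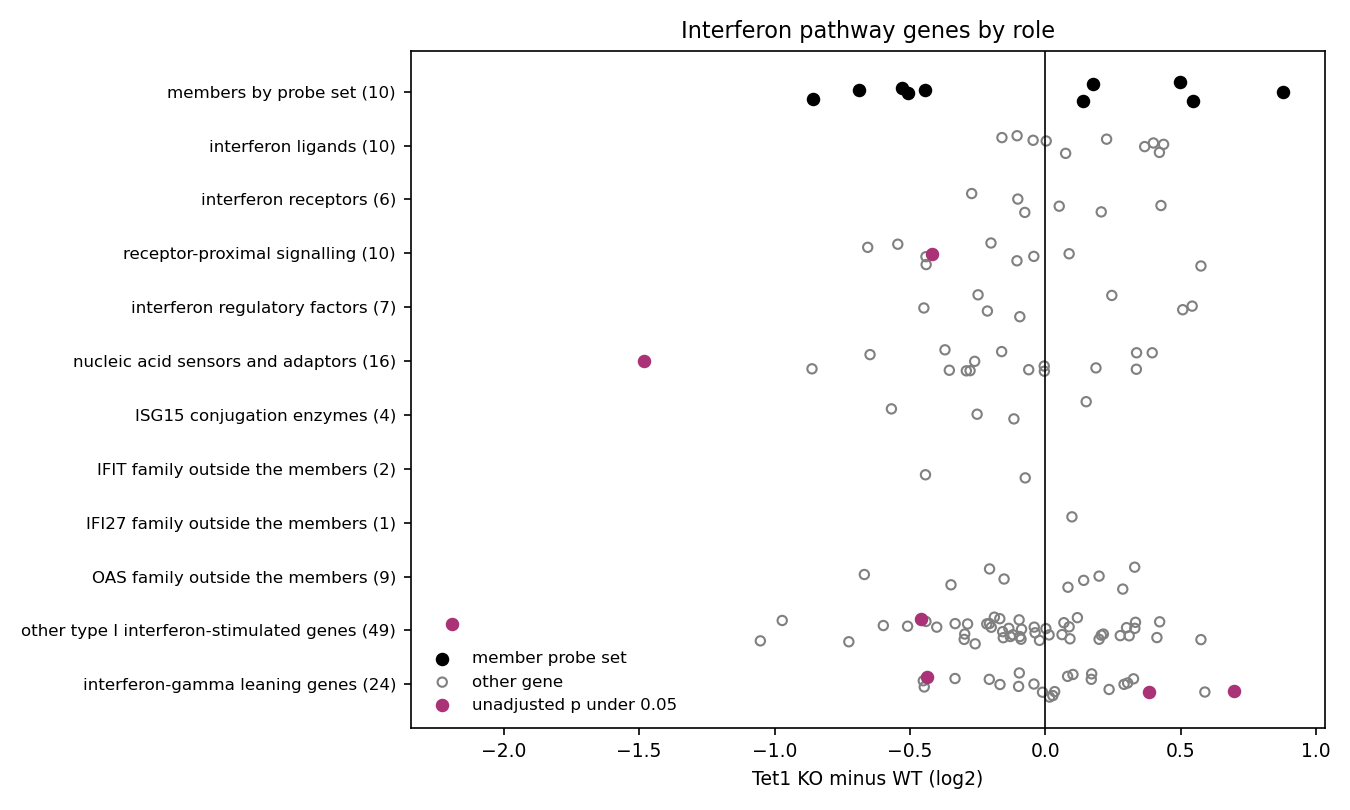
Tet1 KO minus WT difference (log2, x axis) of the 10 member probe sets and of the genes of each pathway list (rows, number in brackets). Each list has 1 point per gene, and Stat2, Irf7 and Irf9 are also repeated among the other type I interferon-stimulated genes. Members are black, and among the others filled points are the 7 genes with an unadjusted limma p under 0.05, from Helz2 at -2.19 to Cxcl11 at 0.70, and none passed adjustment.

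Ligands and receptors come first in the pathway. Of 10 measured interferon genes, 7 had both group means below the bacterial control level, Ifnb1 among them, at 3.42 ± 0.24 and 3.82 ± 0.26. Ifna1 was among the 3 others and read 6.13 ± 0.02 in WT and 6.55 ± 0.48 in Tet1 KO, with Tet1 KO replicate 2 at 6.03, below WT. Its probe set has a name ending in x_at, which marks sequence shared with other transcripts, so signal from the near-identical Ifna genes cannot be told apart. The receptor chain genes Ifnar1 and Ifnar2 differed by 0.05 (SE 0.27) and -0.27 (SE 0.32), and for both the groups overlapped. Other probe sets gave -0.84 for Ifnar1 and -0.65 and -0.62 for Ifnar2. Of the 6 receptor genes, 3 read higher and 3 lower by the brightest probe set, with 0 at an unadjusted p under 0.05. With the mean of the probe sets, Ifnar1 and Il10rb turned from higher to lower, at -0.39 and -0.18, while Ifnar2 stayed lower at -0.51. The remaining higher gene, Ifnlr1, had dim means of 2.84 in WT and 3.04 in Tet1 KO, short of the bacterial control level. The split of this list thus depended on the choice of probe set.

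Downstream of the receptor, 8 of 10 signalling genes read lower and 2 higher, with 1 lower at an unadjusted p under 0.05. Jak1, the kinase gene shared by all interferon receptors, read 9.33 ± 0.12 in WT and 8.91 ± 0.19 in Tet1 KO. Its difference of -0.42 (SE 0.17) had a limma unadjusted p of 0.041 and an adjusted p of 0.686. Its other probe sets gave 0.30 and -0.09, so the mean over its probe sets was -0.07. Stat2, a subunit of the factor that binds the response element, differed by 0.57 (SE 0.32) at its brightest probe set and by -0.87 at the other (limma unadjusted p 0.0375). The mean of both was -0.15, so its place among the higher genes turned with the choice of probe set. Irf9, which gives that factor its DNA contact, differed by 0.09 (SE 0.25).

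Among the interferon regulatory factors, which are transcription factors of this pathway, 3 of 7 read higher and 4 lower, with 0 at an unadjusted p under 0.05. Irf7, which amplifies interferon production, differed by -0.09 (SE 0.25). Irf3, which switches on interferon genes after sensing, read from 7.85 to 8.01 in WT and 9.17, 8.42 and 7.91 in Tet1 KO. Its replicate 1 was the highest and its replicate 3 the lowest of Tet1 KO, the order also seen in Ifit1 and Oasl2. Its difference at this probe set, whose name also ends in x_at, was 0.54 (SE 0.31), and 0.21 when replicate 1 was left out. Its other probe sets gave 0.71, 0.58 and 0.28, of which the second had a limma unadjusted p of 0.00758; the count of the list uses the brightest only.

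Sensors of foreign nucleic acid and their adaptors read lower for 12 of 16 genes, 1 of them at an unadjusted p under 0.05. Mavs, the mitochondrial adaptor of the RNA sensors, read 7.93, 6.68 and 8.01 in WT and 6.29, 5.18 and 6.71 in Tet1 KO. The groups overlapped by a narrow margin at WT replicate 2. The difference was -1.48 (SE 0.50), with a limma unadjusted p of 0.0228 and an adjusted p of 0.686. It came from a probe set whose name ends in x_at, which marks shared sequence, and the other Mavs probe set gave -0.53. Ticam1, the adaptor of Tlr3, differed by -0.37 (SE 0.17).

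The enzymes that attach ISG15, the modifier that Usp18 removes, had 3 genes lower and 1 higher, with 0 at an unadjusted p under 0.05. Uba7, which activates ISG15, read 8.76 ± 0.07 in WT and 8.50 ± 0.15 in Tet1 KO, and every Tet1 KO array was below WT. Ube2l6, which carries it, differed by -0.57 (SE 0.28), and Herc6, the ligase of mouse cells, by 0.15 (SE 0.32). The 4 Herc6 probe sets disagreed in sign: the others gave 0.21, -0.79 (limma unadjusted p 0.0354) and -1.22. The mean over all 4 was -0.41, so the 1 higher gene of this list turned with the choice of probe set. Their adjusted p-values in limma ran from 0.686 to 0.868.

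Relatives of the members were read in the same way. In the oligoadenylate synthetase family 5 of 9 read higher and 4 lower, with 0 at an unadjusted p under 0.05. Oas3 read 6.73, 6.80 and 6.80 in WT and 6.15, 6.65 and 5.53 in Tet1 KO, with all Tet1 KO arrays below WT and replicate 3 lowest. Its difference was -0.67 (SE 0.28), with a limma unadjusted p of 0.0531. It was -0.38 when Tet1 KO replicate 3 was left out and -0.94 when Tet1 KO replicate 2 was. Ifit1bl1, in the IFIT cluster, read 5.99 on Tet1 KO replicate 1 but 2.89 and 3.36 on replicates 2 and 3, against 5.11, 3.97 and 4.50 in WT.

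Of 49 other type I interferon-stimulated genes, 31 read lower and 18 higher, with 2 lower and 0 higher at an unadjusted p under 0.05. This list also holds Stat2, Irf7 and Irf9, which were counted in the lists above as well. Helz2, an interferon-induced helicase, read 6.56, 6.76 and 7.23 in WT and 5.53, 4.13 and 4.32 in Tet1 KO. No arrays overlapped, and the difference of -2.19 (SE 0.40) had a limma unadjusted p of 0.00105 and an adjusted p of 0.686. Replicates 2 and 3 of Tet1 KO lay below the bacterial control level there, so the size of the difference depends on dim signal. Helz2 was listed with its values on these arrays already known, and the lists as a whole with earlier results of these data known. Tor3a, an interferon-induced ATPase, differed by -0.46 (SE 0.18), but its other probe sets gave -0.55 and 1.03. The mean over all Tor3a probe sets, the brightest included, was 0.01.

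Genes that lean towards interferon gamma numbered 24, with 14 higher and 10 lower. The chemokine genes Cxcl11 and Cxcl9, whose products attract activated T cells, read higher on every Tet1 KO array. Cxcl11 read 4.20 ± 0.05 in WT, under the bacterial control level, and 4.90 ± 0.41 in Tet1 KO. Its difference of 0.70 (SE 0.23) had a limma unadjusted p of 0.0198, and its other probe set gave 0.23. Cxcl9 read under that level in both groups. Psmb10, a subunit of the immunoproteasome, read 9.93 ± 0.22 in WT and 9.50 ± 0.16 in Tet1 KO, and had a limma unadjusted p of 0.0466.

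Markers of other marrow cells were read beside these values, as such cells can carry interferon-stimulated transcripts, and in bulk RNA fewer cells of a type cannot be told apart from less RNA per cell. Of 10 LSK markers, 3 read higher in Tet1 KO and 7 lower, with a median difference of -0.09. Kit read 9.94 ± 0.10 in WT and 9.84 ± 0.15 in Tet1 KO, and Cd34 read 10.82 ± 0.19 and 10.76 ± 0.16. Hlf had the smallest p of the list, a limma unadjusted p of 0.068, with a difference of -0.50 (SE 0.23). Tek also differed by -0.50. Flt3, a marker of the multipotent progenitors among LSK cells, read 10.60, 10.31 and 9.95 in WT and 11.55, 9.48 and 10.18 in Tet1 KO. It was highest on Tet1 KO replicate 1, as were Ifit1 and Oasl2, but its lowest Tet1 KO array was replicate 2 and theirs was replicate 3. Slamf1, a stem cell marker, stood apart on Tet1 KO replicate 2, at 7.97 against 5.63 to 6.01 elsewhere. Ly6a was not analysed here. The summed level of 7 plasmacytoid dendritic cell markers ran from 10.43 to 10.58 in WT and from 10.41 to 10.50 in Tet1 KO (log2). That of 8 monocyte and macrophage markers ran from 10.49 to 10.66 in WT and from 10.63 to 10.84 in Tet1 KO. It was highest on Tet1 KO replicate 1, the array with the highest Ifit1 and Oasl2. There Csf1r read 8.73, against 5.30 to 7.07 on the other arrays, while Lyz2 read 10.27, below 10.35 on Tet1 KO replicate 2. Ccr2 read 4.30 on that array, its lowest Tet1 KO value. The sum of 6 neutrophil markers ran from 9.51 to 10.86 in WT and from 10.08 to 10.68 in Tet1 KO, and that of 7 B cell markers from 9.24 to 10.71 and from 9.41 to 11.13. Of 9 T and NK cell markers, 6 had both group means below the bacterial control level. In that list Cd8a read 5.28 ± 0.16 in WT and 5.82 ± 0.32 in Tet1 KO, and in the B cell list Pax5 read 4.90 ± 0.12 and 5.31 ± 0.15, both without overlap and with limma unadjusted p of 0.0375 and 0.0331. The median difference was 0.21 for the T and NK cell markers, 0.22 for the B cell markers and 0.44 for the neutrophil markers. It was 0.03 for the plasmacytoid dendritic cell markers and 0.04 for the monocyte and macrophage markers. Of 4 erythroid markers, 1 read higher and 3 lower, with a median of -0.265, and 2 had both group means below the bacterial control level. In these lists 0 markers passed adjustment. A sum is weighted to its brightest probe set (Tcf4 for plasmacytoid dendritic cells, Lyz2 for monocytes, Ighm for B cells). It can also move with 1 other marker, as with Csf1r, so it says little on the share of a cell type. The part of other cells in the members' values was not tested.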

How the data were processed

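Affymetrix mouse arrays measured RNA of sorted LSK cells, 3 samples of WT and 3 of Tet1 KO. The values are log2 intensities that the authors deposited in 1 table of 45101 probe sets for all 6 arrays; the background correction and normalization behind them are not given in the sources used, and they were taken unchanged. The number of arrays limits the precision. Gene symbols came from the platform annotation: 34958 probe sets had 1 symbol, 932 several and 9211 none, and a gene was named only from a probe set with 1. After 64 control probe sets were left out, limma 3.58.1 in R 4.3.3 (lmFit, eBayes, Benjamini-Hochberg) was fitted to 45037 probe sets with genotype as the 1 term, and it was tested on simulated data. Members, and the lists of pathway and marker genes, were chosen with earlier results of these data known. Members carry no test. Named pathway genes were a core group (receptor chains, Stat2, Irf7, Irf9, the ISG15 enzymes and Rsad2) and, of the 3 genes with the smallest unadjusted p in each list, those described, each by its brightest probe set. The 8 genes most like the members were taken by Pearson correlation. Promoter sequences came from RefSeq (GRCm38.p6), and no entry was found by symbol for Usp18, Ifi27 or Ifi27l2a. Alternatives covered normalization, array weights, the eBayes trend, probe set choice, a filter on dim probe sets, single arrays left out, the replicate number as a block, and Xist state.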

Additional observations from a re-analysis of the deposited data

How the results depend on the processing

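With 1 value per gene, by the brightest or the mean probe set, the members' median was 0.16 and not -0.15, since Ifi27 and Cmpk2 then count once. Without single arrays it ran from -0.32 to 0.00, and with array weights it was -0.08. The direction of each member was kept under every alternative run, except Oasl2 at -0.05 without Tet1 KO replicate 1. Adjusted calls over all probe sets went from 0 to 1 with the eBayes trend, plain or robust. The 3065 probe sets at an unadjusted p under 0.05 became 1311 and 1446 with 1 value per gene (brightest, mean) and 1713 above the bacterial control level, where fewer features were tested; without single arrays they ran from 1558 to 4627. Of pathway genes, the 2 higher became 1 with Xist state (a term chosen after seeing the data), 4 with array weights, 0 with cyclic loess, 5 with the eBayes trend, 4 with the mean of probe sets and 1 above the bacterial control level, and ran from 1 to 5 without single arrays. The 5 lower became 2 with cyclic loess, 8 with the mean of probe sets, 2 above the bacterial control level and 2 with quantile normalization, and ran from 2 to 11 without single arrays. The cause was not tested. With the replicate number as a block, 1 pathway gene was higher and 3 lower, and 2396 probe sets had an unadjusted p under 0.05. Same-numbered arrays correlated at 0.013, -0.006 and 0.001 in their deviations, so the numbers were not taken to pair samples. Probe sets near the bacterial control level, most interferon ligands among them, read at background, so their differences are not measured well.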
